A study of Mus musculus with 7 samples.

Results

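The 8 lineage transcription factors Pdx1, Sox9, Gata4, Gata6, Hnf4a, Foxa1, Foxa2 and Klf5 were taken by name from the 38026 genes of a bulk RNA-seq table of mouse pancreatic ductal adenocarcinoma (PDA) tumors. The tumors grew subcutaneously in C57BL/6 mice from cells of the KPC line 1242 and were collected 2 weeks after inoculation, with no treatment. KPC cells come from a mouse whose tumor-driving alleles were switched on by Cre expressed from the Pdx1 promoter, so both groups share these alleles and descend from a cell in which that promoter was once active. Control tumors (sgScramble, replicates 1 to 4, n = 4) carried Cas9 with a scrambled guide RNA, and the edited tumors (sgKRT19, replicates 5, 6 and 8, n = 3) carried Cas9 with a guide RNA against Krt19, a keratin of simple epithelia. The labels do not say which guide was used, or whether the injected cells were polyclonal or 1 clone. If each group came from 1 cell population, the p-values below measure the spread between tumors of that population only.

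In the embryo, FOXA and GATA factors open closed chromatin in the gut tube, and PDX1 then marks the epithelium that will form the pancreas, where SOX9 keeps progenitors and, later, duct cells. HNF4A runs gut and liver epithelial programs, and KLF5 maintains proliferating epithelia. In pancreatic cancer several of these genes, above all GATA6 and HNF4A, are known as marks of the classical, gland-forming subtype, in contrast to the basal-like subtype. The comparison asks whether these identity genes differed between tumors with and without editing of Krt19.

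All 8 genes were well expressed in all 7 libraries, and most differed little between the groups. Gata6 fell in sgKRT19 tumors to 74.9% of its control mean, and Klf5 rose to 129% of its control mean. The mean of Gata4 was 126% of the control mean but missed the threshold. For Pdx1, Sox9, Hnf4a, Foxa1 and Foxa2 the libraries of the groups overlapped. Thus 2 of the 8 passed the test, against a background of 34.0% of all 21322 genes tested (17.9% higher and 16.0% lower in sgKRT19 tumors). By edgeR's quasi-likelihood test the same 2 members were called, against 33.7% of genes. The test was limma on log2(value + 1) with Benjamini-Hochberg adjusted p under 0.05, where a value is a normalized read count, the reads of a gene divided by the size factor of its library.

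As a check of the labels, Krt19 was examined first. Its mean normalized read count was 23053 ± 4392 in control tumors (SD, n = 4) but 2012 ± 434 in edited tumors (SD, n = 3), which is -3.52 on the log2 scale (SE 0.183, adjusted p = 1.74e-05, limma). Libraries held 40781199 to 44972100 reads. The epithelial list was detected in full (10 of 10 genes tested), and the 3 of them with the most reads, the keratins Krt8 and Krt18 and the cadherin Cdh1, rose by log2 fold changes of 0.91, 0.97 and 0.55. The other 7 were not called, with values from -1.23 for Cldn4, -1.22 for Esrp1 and -1.03 for Krt7 through 0.06 for Epcam to 0.80 for Ocln, and the median of the 10 was 0.50.

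Promoter sequence was read for the members because their proteins are known to bind one another's genes. RefSeq promoter windows (GRCm38, 250 bases before to 50 after each start) matched 4 of the 8 members, Pdx1, Hnf4a, Foxa1 and Foxa2, with 7 windows among them. Both strands were searched for 3 motifs. For GATA factors the letters were AGATAA, found in 2 of the 7 windows and in 11.2% of 32851 windows of all genes. For FOXA factors they were TGTTTAC, found in 1 of the 7 and in 3.65% of all. For SOX factors they were AACAAAG, found in 1 of the 7 and in 5.85% of all. The stretches with a match are shown 5′ to 3′ on the strand of the gene, upstream of the RefSeq start of their window, with the motif letters in capitals.
Foxa2, chr2:148045622-148045667, minus strand: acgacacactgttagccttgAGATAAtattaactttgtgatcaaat
Hnf4a, chr2:163506785-163506830, plus strand: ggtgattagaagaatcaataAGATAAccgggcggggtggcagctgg
Foxa1, chr12:57546223-57546272, minus strand: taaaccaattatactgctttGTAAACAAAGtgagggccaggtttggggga
The capitals of Foxa2 and Hnf4a are the GATA motif, whose last base lies 177 and 46 bases before that start. Those of Foxa1 are a FOXA motif on the opposite strand and a SOX motif on the gene's strand, which overlap. By the GENCODE annotation, the Foxa2 and Foxa1 stretches lie in introns, behind a further start upstream, and the last 23 bases of the Hnf4a stretch lie in a 5′ UTR. These are matches of letters, not shown sites of binding, and the 3 genes that carry them did not pass the test between the groups.

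**Figure D1:**
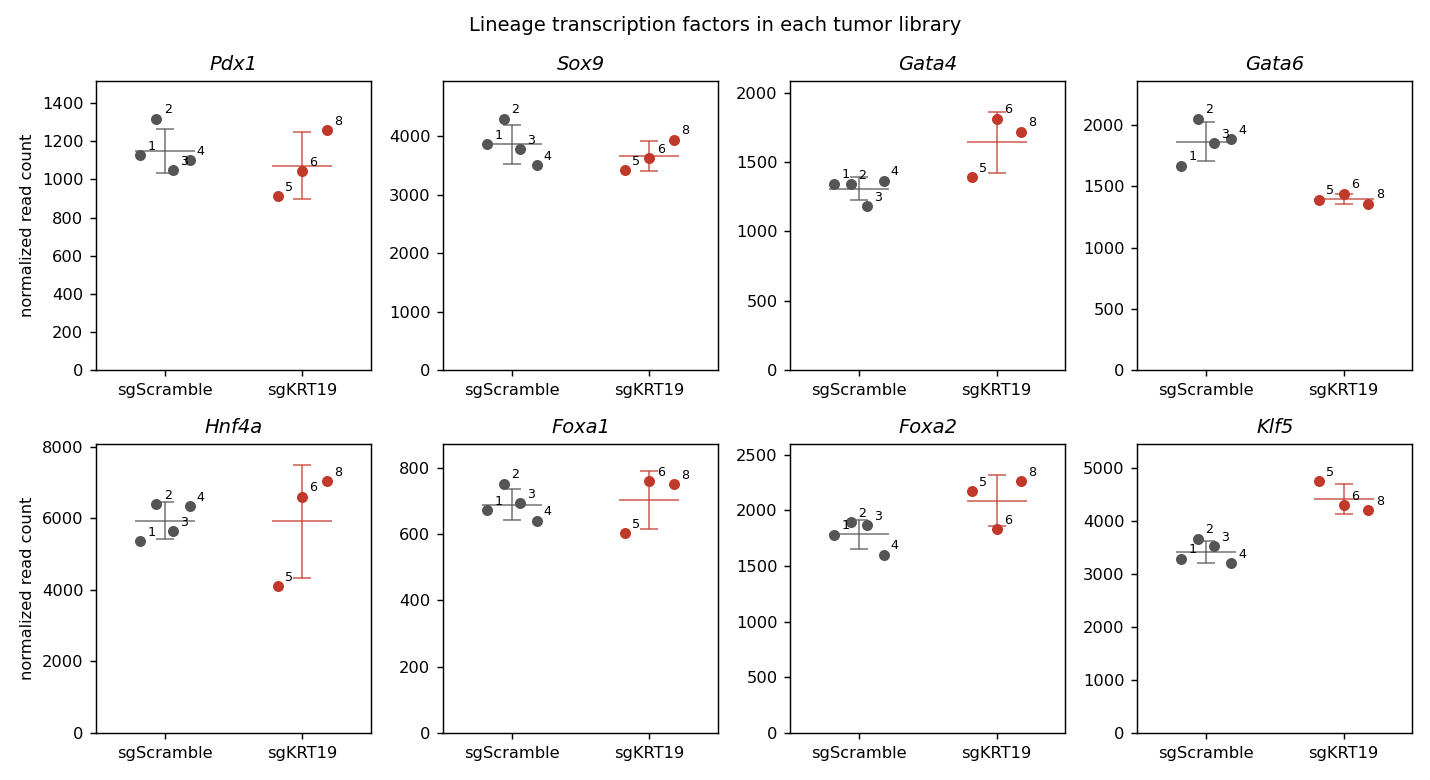
Normalized read counts (vertical axis, from 0) of the 8 lineage transcription factors, 1 point per tumor library labelled with its replicate number, with the mean and SD of each group as bars. Gata6 lies at 1666 to 2049 in sgScramble and 1357 to 1439 in sgKRT19 tumors, Klf5 at 3199.6 to 3657 and 4191 to 4737, and the Hnf4a point of sgKRT19 replicate 5 lies apart at 4102.

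The GATA factors were taken first. GATA6 and GATA4 are zinc finger pioneer factors that act side by side in the forming pancreas and stomach. Both are protein-coding, Gata6 on the plus strand of chromosome 18 (11052064 to 11085635, GRCm38) and Gata4 on the minus strand of chromosome 14 (63198922 to 63271692). Gata6 had normalized read counts of 1666, 2049, 1852 and 1882 in sgScramble replicates 1 to 4, and of 1388, 1439 and 1357 in sgKRT19 replicates 5, 6 and 8. All sgKRT19 libraries were lower than all controls, and the 3 sgKRT19 libraries lay close together (mean 1395 ± 41.6, SD, n = 3, against 1862 ± 157, SD, n = 4). The log2 fold change was -0.41 (SE 0.105, 95% interval -0.65 to -0.18, adjusted p = 0.0137, limma). It stayed between -0.47 and -0.37 when each library was left out in turn, and was called each time. A non-coding gene on the opposite strand, 1010001N08Rik, shares 93 bases, or 1.43%, of the exon bases of Gata6 and held 42.8 to 90.0 normalized reads, so its reads are few beside those of Gata6.

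Gata4 stood at 1344, 1338, 1182 and 1364 in sgScramble and at 1391, 1811 and 1719 in sgKRT19 tumors. The groups did not overlap, but sgKRT19 replicate 5 was only just above the highest control. The difference of means (1307 ± 84.2, SD, n = 4, against 1640.4 ± 221, SD, n = 3) gave a log2 fold change of 0.32 (SE 0.121, 95% interval 0.05 to 0.59), which limma did not call (adjusted p = 0.0634). Without sgKRT19 replicate 5 it was called, at 0.44 (adjusted p = 0.0244, limma). Across the members, 3 of 8 had groups that did not overlap, against 41.1% of all genes tested.

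The ratio of Gata4 to Gata6 within each library, which a scaling of the library leaves nearly unchanged, was 1 of 3 ratios compared. Its difference between the groups restates the log2 fold changes of Gata4 and Gata6 given above and is no further evidence of either. The log2 ratio of Gata4 to Gata6 was -0.31, -0.61, -0.65 and -0.46 in sgScramble and 0.002, 0.33 and 0.34 in sgKRT19 tumors. All 3 sgKRT19 libraries were above all 4 controls, and the mean differed by 0.73 (-0.51 ± 0.155, SD, n = 4, against 0.23 ± 0.193, SD, n = 3). An exact two-sided permutation test, which counts the smaller tail for both sides, gave p = 0.0571, and 0.171 adjusted over the 3 ratios examined. The unadjusted value is the smallest that this form of the test can give for 4 against 3 libraries. Per base of exon, the control tumors had 1.18 ± 0.129 Gata4 transcripts for each of Gata6 (SD, n = 4), and the edited tumors 1.96 ± 0.251 (SD, n = 3).

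The ratios of the other pairs overlapped between the groups. Foxa1 to Foxa2 had a mean log2 ratio of -1.37 ± 0.0532 in the controls (SD, n = 4), beside -1.57 ± 0.289 in edited tumors (SD, n = 3) (exact permutation p = 0.286, adjusted 0.429). Within sgKRT19 the ratio ranged from -1.85 in replicate 5 to -1.27 in replicate 6. For Pdx1 to Sox9 the means were -1.75 ± 0.0790 (SD, n = 4) and -1.78 ± 0.129 (SD, n = 3), a difference of -0.03 (exact permutation p = 0.743, adjusted 0.743).

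**Figure D2:**
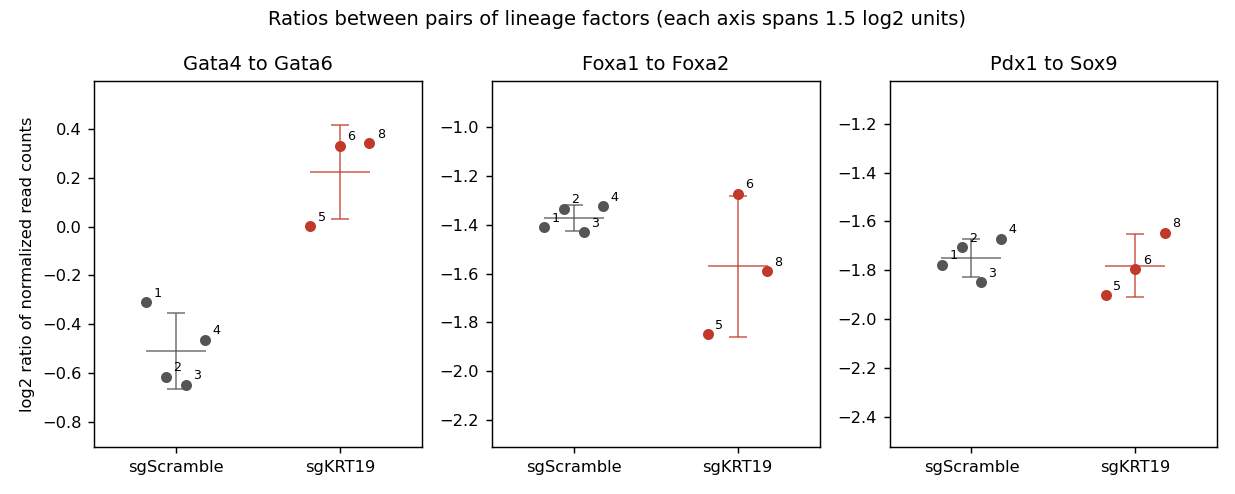
Log2 ratio of normalized read counts (vertical axes, each spanning 1.5 log2 units) for 3 pairs of lineage factors, 1 point per library with the group mean and SD. The ratio of Gata4 to Gata6 lies at -0.65 to -0.31 in sgScramble and at 0.002 to 0.34 in sgKRT19 tumors, while the groups overlap for the other pairs.

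Klf5, a zinc finger factor of dividing epithelial cells, was the member that rose. It is a protein-coding gene on the plus strand of chromosome 14 (99298691 to 99315036, GRCm38). Its normalized read counts were 3281, 3657, 3517 and 3199.6 in sgScramble and 4737, 4294 and 4191 in sgKRT19 tumors. The lowest sgKRT19 library was above the highest control, and the means were 3414 ± 211 (SD, n = 4) and 4407 ± 290.3 (SD, n = 3). The log2 fold change was 0.37 (SE 0.101, 95% interval 0.14 to 0.59, adjusted p = 0.0196, limma). This call was the less stable of the pair. Without sgScramble replicate 4 it was 0.34 (adjusted p = 0.0543, limma), without sgKRT19 replicate 5 it was 0.32 (adjusted p = 0.0638, limma), and with library size as the only scaling it was 0.15 (adjusted p = 0.245, limma).

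HNF4A, a nuclear receptor of gut, liver and pancreatic epithelium, had the highest level per length of the members. Hnf4a stood at 5358.5, 6388, 5639 and 6341 in sgScramble and at 4102, 6594 and 7026 in sgKRT19 tumors. Replicate 5 was the lowest of all 7 libraries and replicate 8 the highest, so the sgKRT19 group spanned the controls. The log2 fold change was -0.04 (SE 0.178, 95% interval -0.44 to 0.35, adjusted p = 0.875, limma), and without replicate 5 it was 0.20 (adjusted p = 0.248, limma). The interval includes a fall of the size measured for Gata6.

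The forkhead pioneer factors FOXA1 and FOXA2 act early in the gut tube. Foxa1 had normalized read counts of 671, 751, 692 and 639.9 in sgScramble and of 602, 758 and 749.8 in sgKRT19 tumors, again with replicate 5 lowest. Its log2 fold change was 0.03 (SE 0.125, 95% interval -0.25 to 0.30, adjusted p = 0.890, limma). Foxa2 stood at 1782, 1893, 1866 and 1603 in sgScramble and at 2172, 1831 and 2260.0 in sgKRT19 tumors. Here replicates 5 and 8 lay above all controls and replicate 6 among them, and the log2 fold change was 0.22 (SE 0.114, 95% interval -0.03 to 0.48, adjusted p = 0.153, limma).

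PDX1, the homeodomain factor without which no pancreas forms, and SOX9, the factor of progenitor and duct cells, had overlapping groups. Pdx1 was 1127, 1318, 1049 and 1101 in sgScramble and 913, 1044 and 1259 in sgKRT19 tumors. The difference on the log2 scale was -0.11 (SE 0.136, 95% interval -0.41 to 0.20, adjusted p = 0.564, limma). Plut, a non-coding gene on the opposite strand beside Pdx1 with no shared exon base, was 343 to 519.7 in sgScramble and 351 to 629 in sgKRT19 tumors. Sox9 was 3862, 4300.1, 3782 and 3507 in sgScramble and 3417, 3629 and 3942 in sgKRT19 tumors. On the log2 scale the difference was -0.08 (SE 0.108, 95% interval -0.32 to 0.16, adjusted p = 0.609, limma).

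Between genes, levels were compared only per length, as TPM, read counts per exon base scaled to the same total in each library, over the union of exons, and only within a group. In sgScramble tumors the order was Hnf4a (52.8 ± 8.80 TPM, SD, n = 4), Sox9 (39.8 ± 3.71), Foxa2 (32.1 ± 2.13), Klf5 (28.0 ± 2.53), Pdx1 (22.8 ± 3.08), Gata4 (14.3 ± 1.84), Gata6 (12.3 ± 1.80) and Foxa1 (8.83 ± 0.808). The ranges over libraries were apart between Sox9 and Foxa2, between Pdx1 and Gata4 and between Gata6 and Foxa1, and overlapped for the other neighbours. The order of means was the same in sgKRT19 tumors, from Hnf4a at 41.4 ± 15.6 TPM (SD, n = 3) to Foxa1 at 7.06 ± 1.81 TPM. There only Klf5 and Pdx1, and Gata4 and Gata6, had ranges that were apart. All 8 genes varied less among the control tumors than the median gene of comparable abundance (SD of log2 values, median 0.163 over 10737 tested genes with a mean of at least 500), and 4 of 8 did so among sgKRT19 tumors (median 0.171). Of these 10737 genes, 35.1% had a larger log2 fold change, in either direction, than Gata6, which had the largest of the members.

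For each member the genes of known name with the most similar profile were sought among 12630 others with a mean of at least 100, by the root mean square difference of centred log2 values over the 7 libraries. The closest to Gata6 were Ddx42 (0.0387) and Rhbdf2 (0.0414), to Klf5 Card19 (0.0409) and Spg7 (0.0427), and to Gata4 Pxk (0.050) and Xpot (0.0558). For Foxa2 they were Bag3 (0.0371) and Igsf8 (0.0476), for Foxa1 Spata2 (0.0410) and Jrkl (0.0422), for Sox9 Rabgef1 (0.0455) and Enkd1 (0.0473), and for Pdx1 Zfp7 (0.0415) and Nkrf (0.0580). Hnf4a had the most distant neighbours, Sltm (0.0618) and Recql4 (0.0781). No member was among the closest genes of another.

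**Figure D3:**
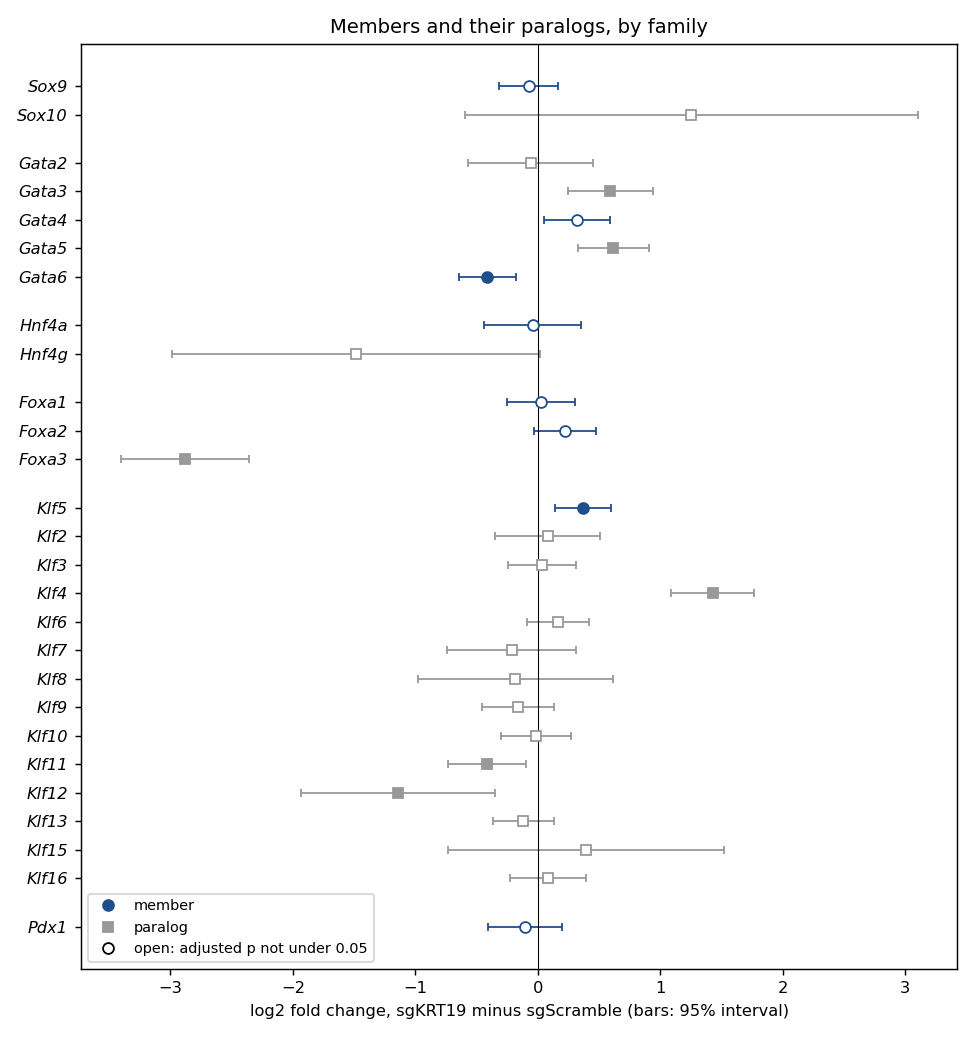
Log2 fold change, sgKRT19 minus sgScramble (horizontal axis), of the members (blue circles) and their tested paralogs (gray squares) by family, with 95% intervals, filled where the adjusted p is under 0.05. Foxa3 lies at -2.88 beside Foxa1 at 0.03 and Foxa2 at 0.22, and Klf4 at 1.43 beside Klf5 at 0.37.

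Larger differences were found among the paralogs than among the members. Of 24 direct paralogs, 19 were tested and 6 were called, 3 higher and 3 lower, against 34.0% of all genes tested. The median log2 fold change of the tested paralogs was -0.01, and without sgKRT19 replicate 8 there were 3 calls. Foxa3, the FOXA factor of liver and gut, fell from 469, 372, 503 and 313 in sgScramble to 62.4, 66.0 and 38.9 in sgKRT19 tumors, with no overlap. Its log2 fold change was -2.88 (SE 0.235, adjusted p = 4.63e-05, limma), and it held this direction and call under all the scalings tried. Hnf4g, the paralog of Hnf4a, was 16.4 to 30.6 in sgScramble and 1.16, 14.0 and 18.9 in sgKRT19 tumors (log2 fold change -1.49, adjusted p = 0.112, limma).

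Among the GATA family, Gata5, a factor of endoderm and heart, rose from 1627, 1588, 1743 and 1461 to 2085, 2415 and 2938 (log2 fold change 0.62, adjusted p = 0.00595, limma). Gata3, a factor of T cells and of several epithelia, rose from 152 to 207 in sgScramble to 251, 254 and 289 in sgKRT19 tumors (log2 fold change 0.59, adjusted p = 0.0168, limma). Both calls were lost with library size as the only scaling (adjusted p = 0.0629 for Gata5 and 0.104 for Gata3, limma), and both directions turned when values were scaled by Krt8, Krt18 and Cdh1. Gata2 was 54.3 to 94.98 in sgScramble and 60.01 to 72.5 in sgKRT19 tumors (log2 fold change -0.06, adjusted p = 0.858, limma), and Gata1 was at or under the floor of 3 reads in every library. Of the SOX9 paralogs, Sox8 reached at most 3.71 and Sox10 at most 14.8 normalized reads.

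Klf4, a factor of differentiating surface epithelium, rose most among the KLF genes. It stood at 1288, 1253, 1935 and 1308 in sgScramble and at 3826, 4010 and 3639 in sgKRT19 tumors, which is 1.43 higher on the log2 scale (SE 0.154, adjusted p = 0.000183, limma). Klf12 fell by 1.14 and Klf11 by 0.42 on the log2 scale (adjusted p = 0.0325 and 0.0463, limma), and 10 further tested KLF genes did not pass the test.

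Other regulators of pancreas and gut identity were then counted. Of 23 further pancreatic transcription factors, 12 were tested and 4 called, 1 higher and 3 lower, against 34.0% of all genes tested. With library size as the only scaling 7 were called, 1 higher and 6 lower, against 37.0% of all genes tested. Pax6, a factor of islet cells and of the eye, rose from 88.6 to 120.6 in sgScramble to 297 to 339 in sgKRT19 tumors (log2 fold change 1.69, adjusted p = 0.000126, limma). The islet factors Isl1 and Insm1 fell by 2.45 and 1.95 on the log2 scale from low levels, at most 32.6 and 12.1 normalized reads in any library.

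Of 19 endoderm and gut factors other than the members, 14 were tested and 9 called, 6 higher and 3 lower, against 34.0% of all genes tested. The median log2 fold change of the list was 0.42 beside 0.01 over all genes tested. Scaled by Krt8, Krt18 and Cdh1, 4 were called higher and 7 lower, with a median of -0.39 beside -0.79 over all genes tested. Cdx2, the homeodomain factor of intestinal epithelium, rose from 152, 112, 134 and 132 to 378, 469 and 519 (log2 fold change 1.77, SE 0.169, adjusted p = 9.44e-05, limma). The epithelial ETS factors Ehf and Elf3 rose by log2 fold changes of 1.57 and 1.45 (adjusted p = 5.41e-05 and 0.000348, limma). Ehf went from 2041 to 2363 in sgScramble to 5334 to 7763 in sgKRT19 tumors, and Elf3 from 2946 to 5261 in sgScramble to 10993 to 11673 in sgKRT19 tumors. In the other direction, Creb3l1 and Spdef, factors of secretory cells, fell by 1.30 and 1.08 on the log2 scale (adjusted p = 0.000197 and 0.0308, limma). Foxa3, Gata5 and Klf4, already counted among the called paralogs, belong to this list as well. The remaining gene called higher was Eomes (log2 fold change 0.88, adjusted p = 0.0088, limma). Whether leukocytes, whose genes also rose as given below, carried it was not tested. Over the pancreatic, endoderm and paralog lists together, each gene counted once, 41 were tested and 16 called, 8 higher and 8 lower.

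Among 17 partners of the members, 16 were tested, of which 8 fell and none rose. Over all genes tested, 16.0% fell and 17.9% rose. With library size as the only scaling 11 partners fell, against 37.0% of all genes called in either direction. With the full epithelial list as the scale 2 fell, against 5.91% called. The largest falls were those of Sox5, which acts with SOX9 in cartilage, Ppargc1a, a coactivator of HNF4A, and Meis1, a homeodomain partner, at log2 fold changes of -2.69, -1.99 and -1.07 (adjusted p = 0.000977, 0.000476 and 0.00495, limma). Sox5 was 36.5 to 66.8 in sgScramble and 3.15 to 12.0 in sgKRT19 tumors, and Ppargc1a was 128 to 250.4 and 34.7 to 49.4. The median log2 fold change of the tested partners was -0.51.

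**Figure D4:**
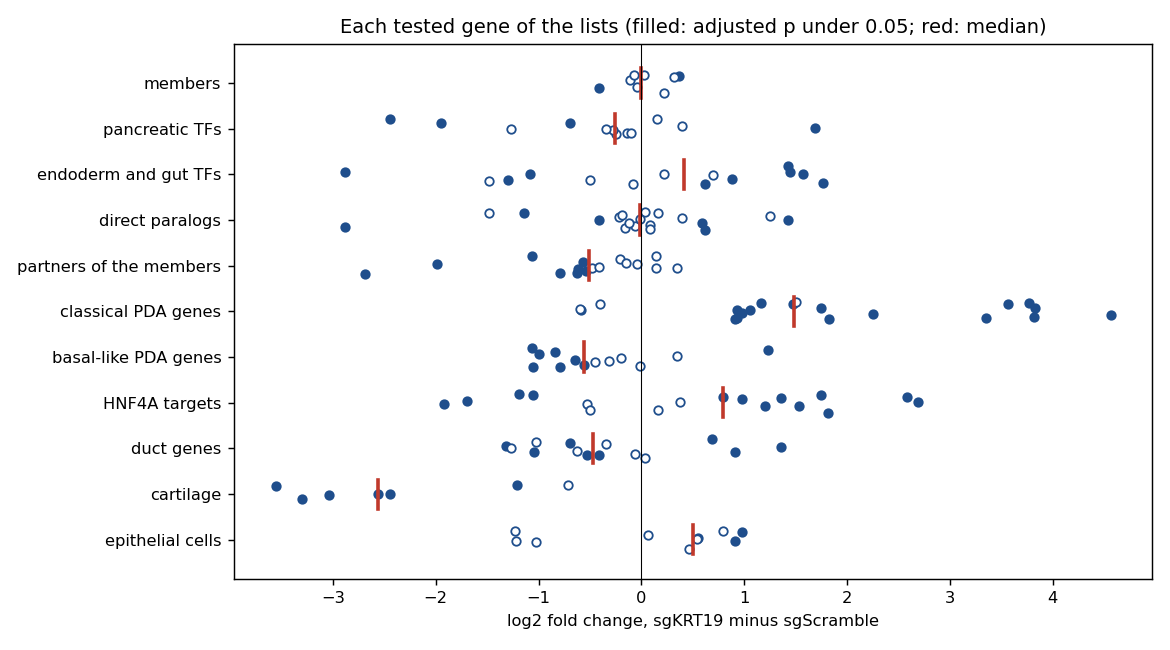
Log2 fold change, sgKRT19 minus sgScramble (horizontal axis), of each tested gene of the members and of 10 lists, filled where the adjusted p is under 0.05, with the list median as a red bar. The members lie between -0.41 and 0.37, while classical PDA genes have a median of 1.48 and cartilage genes one of -2.56.

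Genes that mark the states these factors are known for were examined next. For the lists that follow, 17.9% of all genes tested rose and 16.0% fell. Of 24 classical PDA genes, 20 were tested and 16 rose and 1 fell (median log2 fold change 1.48). The trefoil peptides Tff3, Tff2 and Tff1 rose most, by 4.56, 3.82 and 3.82. Tff1 also varied widely among the controls, at 1802, 867, 5017 and 399.7, where the members varied little. Slc40a1, the iron exporter, fell by 0.59 on the log2 scale. Of 18 basal-like genes, 13 were tested, 1 rose and 7 fell (median -0.55). Leaving out sgScramble replicate 2 or 4 or sgKRT19 replicate 5 or 8 left 4 to 5 calls. The 7 that fell were Zeb2, Snai1, Snai2, Twist1, Hmga2, Gli2 and Cdh2, and no keratin was among them. Trp63, Krt14 and Ly6d were not called, at -0.45, -0.01 and -0.20, nor were Zeb1 at -0.32 and Vim at 0.35. The keratins Krt6a, Krt6b and Krt17 of this list were at or under 3 reads in every library. The summed level of the list went the other way, at 70107.5 to 82372 in sgScramble and 84491 to 94174 in sgKRT19 tumors. Twist1 and Cdh2, marks of mesenchymal change, fell by 1.06 and 0.998 on the log2 scale (adjusted p = 0.000476 and 0.00914, limma), and the keratin Krt15 rose by 1.23. Gata6, itself known as a mark of the classical state and not counted in this list, fell in the same tumors.

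Genes known to be driven by HNF4A moved both ways, although Hnf4a was not called. Of 20 listed, 17 were tested, with 9 higher and 4 lower, against 17.9% and 16.0% of all genes tested. Cdhr5 and Myo1a of the brush border and the fatty acid carrier Fabp1 rose by log2 fold changes of 2.69, 2.58 and 1.82. The glucose transporter Slc2a2, the thyroxine carrier Ttr and the lipid transfer gene Mttp fell by 1.92, 1.69 and 1.19. Ttr went from 2318, 1871, 3735 and 1844 to 935, 630.1 and 638.5, without overlap. Of 15 duct genes, 14 were tested, with 3 higher and 5 lower, against the same shares of all genes tested. Prom1, a stem and duct cell antigen, rose by 1.35, and the ion channel Cftr and the cilium gene Pkhd1 fell by 1.32 and 1.05 on the log2 scale (adjusted p = 0.000113, 0.00503 and 0.00131, limma).

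Cartilage genes, targets of SOX9 in the skeleton, fell, although Sox9 was not called. All 6 called genes of 7 tested were lower, led by Hapln1, Col2a1 and Col9a3 at log2 fold changes of -3.55, -3.30 and -3.04. Over all genes tested, 16.0% were called lower. Col9a3 was 268, 251, 395 and 179 in sgScramble and 24.3, 23.0 and 53.6 in sgKRT19 tumors. The summed level of the list was 1147 to 1803 in sgScramble and 515 to 714 in sgKRT19 tumors. Whether host cells carried these genes, and whether such cells contributed to Sox9, was not tested.

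Few genes of differentiated pancreatic cells reached the level needed for testing. Of the 12 acinar genes with values, 3 were tested and 0 were called by limma, edgeR or DESeq2, with 1, Cela1, at an unadjusted p under 0.05 in each. Without sgScramble replicate 3 limma called 1. Cpb1, Cela3b, Cel and Gp2 were at or under 3 reads in every library. The summed level of the acinar list was 784 to 1960 in sgScramble and 1723 to 2407 in sgKRT19 tumors. Of 7 endocrine genes, Gcg, Ppy, Iapp, Pcsk2 and G6pc2 were at or under 3 reads. Only Chga, a secretory granule gene, was tested, and it rose by a log2 fold change of 1.62 (adjusted p = 0.0224, limma), a call lost without sgScramble replicate 2 and without sgKRT19 replicate 8. 

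In bulk tumors, fewer cells of a type and less RNA per cell cannot be told apart, so the cell types that could carry the members were measured beside them. The leukocyte list rose in 7 of 8 tested genes, with a summed level of 7728 to 10233 in sgScramble and 14298 to 20095 in sgKRT19 tumors. Skeletal muscle genes rose in 10 of 10, from 381 to 2744.5, the highest being sgScramble replicate 3, to 21396 to 29194. Endothelial genes rose in 4 of 6, and macrophage genes rose in 3 and fell in 1 of 9. Over all genes tested, 17.9% rose and 16.0% fell. Endothelial calls numbered 2 without sgScramble replicate 2, sgKRT19 replicate 5 or sgKRT19 replicate 8, macrophage calls numbered 2 without sgKRT19 replicate 5, and with library size alone each numbered 2. Fibroblast genes were called in 0 of 11 by limma, in 1 by edgeR and in 2 by DESeq2, with 1 at an unadjusted p under 0.05 in limma (Postn, named after its value was seen). The 7 genes listed as markers of peritoneal macrophages, cells that express Gata6, summed to 944 to 983 in sgScramble and 1191 to 1712 in sgKRT19 tumors. Whether such cells or others carried these levels was not tested. Of the 5 tested markers, 2 rose, Icam2 and Prg4, by log2 fold changes of 0.92 and 0.64. The other 3, Selp, Rarb and Alox15, were not called, at 0.86, -0.04 and -0.21. Timd4 and Cd5l of this list did not reach the level needed for testing. The skin and hair follicle list, tissues that express Sox9 and Klf5, summed to 266 to 508 and 651 to 856, with Krt1 at or under 3 reads throughout, but of its 5 tested genes 1 rose (Ivl, by 1.57), 1 fell (Lor, by 1.51 on the log2 scale) and the median log2 fold change was -0.01. The part of these cells in the results for the members was not tested.

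The members' values were then compared under other scalings. With library size alone, the median over all tested genes moved from 0.01 to -0.21 on the log2 scale, and 27.7% of calls were higher in place of 52.8%. Under the deposited scaling the members had a median of -0.01. With library size alone Gata6 was called at -0.63 and the other 7 members were not called, against 37.0% of all genes called. Scaled instead by the mean log2 value of Krt8, Krt18 and Cdh1, an alternative chosen after the data were seen, all 8 members were lower and called, from -1.22 for Gata6 to -0.44 for Klf5. That scaling moved the median of all genes to -0.79 and called 75.5% of genes, 95.2% of these calls lower, so the count of members says little about them beyond the shift. Relative to that median Gata6 lay at -0.43 and Klf5 at 0.35, near the reported values, as they must under a scaling that moves every gene of a library alike. With the full epithelial list as the scale, which varied by a factor of 0.684 to 1.49 among libraries, 0 members were called by limma, none with an unadjusted p under 0.05, and 1260 genes (5.91%) were called in all. The log2 fold changes under it were -0.50 for Gata6 and 0.29 for Klf5, so it was the calls and not the differences that were lost.

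**Figure D5:**
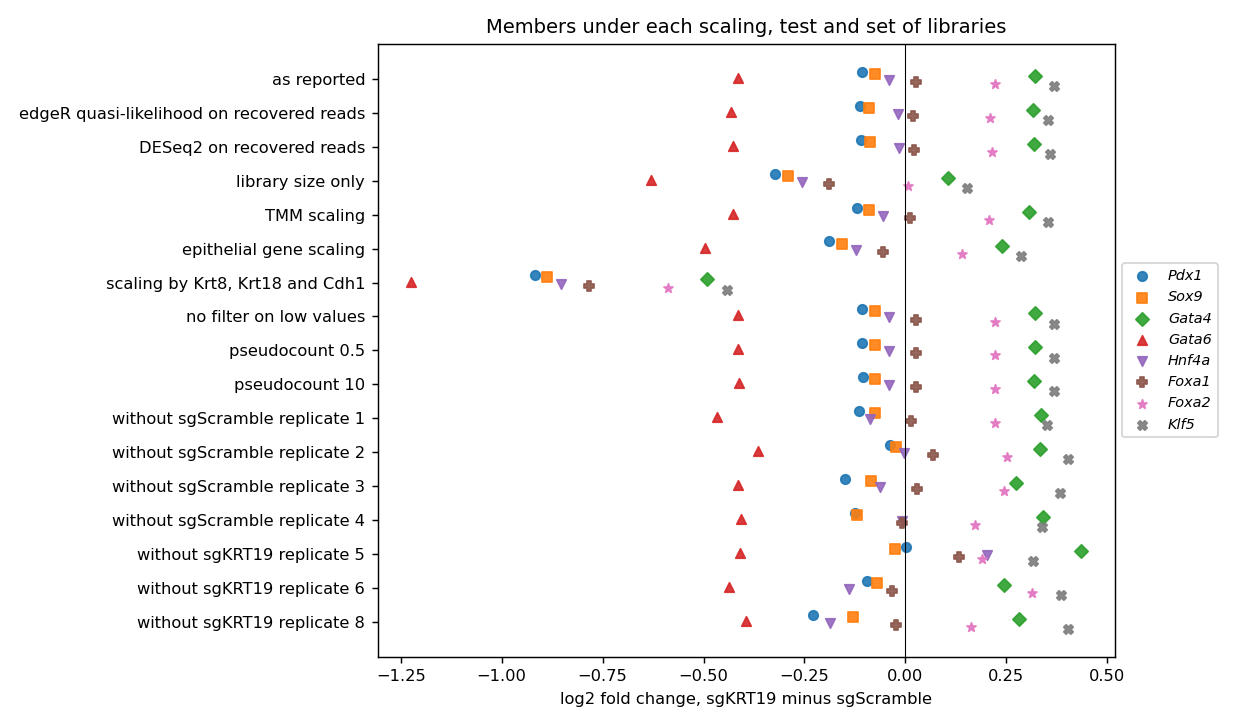
Log2 fold change, sgKRT19 minus sgScramble (horizontal axis), of each member under the reported test and 16 alternatives (rows). Gata6 is the lowest in every row, Krt8, Krt18 and Cdh1 as the scale moves all 8 members below 0, and leaving out sgKRT19 replicate 5 moves Hnf4a to 0.20.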

How the data were processed

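RNA-seq libraries of 4 sgScramble and 3 sgKRT19 tumors were analyzed. The authors deposited 1 table of 38026 genes whose values are a signal, reads per gene divided by a size factor of the library. Whole reads were recovered from the step of each column for 100% of values (tolerance 0.1 read). The aligner and counting program are not given in the sources used here, and whether counting used strand is unknown. The labels name polyA RNA and the study a stranded total RNA kit. The submitters' processing notes name the build mm10. Positions and exon lengths came from GENCODE release 21 of GRCm38, in which 97.6% of gene identifiers had the same version. Depth was 40781199 to 44972100 reads, and 3 reads, taken as the floor, were a value of 2.74 to 3.47, which covers counting error only.

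The 21322 genes that reached a value of 10 in 3 or more libraries were tested with limma 3.58.1 (R 4.3.3) on log2(value + 1), with lmFit and eBayes with a trend and Benjamini-Hochberg adjustment at 0.05. This pseudocount understates changes of low genes. Ratios were compared by exact two-sided permutation tests (scipy 1.17.1). edgeR 4.0.16 and DESeq2 1.42.0 on the recovered reads, other scalings, filters and pseudocounts and leaving out each library were the alternatives. edgeR called 33.7% of genes. Named genes were the members, Krt19, the paralogs of the SOXE, GATA, HNF4 and FOXA families, and up to 3 called genes with the largest change each way per other list. Genes named beyond these are list members at or under the floor, Klf genes and those the text counts, chosen after their values were seen. Members and lists were chosen with earlier results of these data known. Listed genes without a row of their own in the table were not analysed here. The groups share no replicate number, so nothing was paired. Some genes of the lists, although counted, are not reported here by name.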

Additional observations from a re-analysis of the deposited data

Results flagged for a closer look

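Among 72 sets of 4 sgScramble values examined, 6 held a library whose distance to the nearest other exceeded the 95% limit of Dixon's test, where chance gives about 1 in 20. Gata4 was 1182 in sgScramble replicate 3, below 1338 to 1364 in the others. Klf4 and Spdef were high in the same library, at 1935 (others 1253 to 1308) and 1269.5 (others 416 to 476), as was the summed skeletal muscle list, at 2744.5 (others 381 to 442). Pax6 was 120.6 in replicate 4 (others 88.6 to 90.1), and Sox10 was 14.8 in replicate 2 (others 0.913 to 0.929). Without sgScramble replicate 3 the log2 fold change of Gata4 was 0.27, and Gata6 and Klf5 were still called.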

How the results depend on the processing

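The number of genes called, 7240, became 1260 with the full epithelial list as the scale and 16100 with Krt8, Krt18 and Cdh1 as the scale, the latter chosen after seeing the data. The number of members called, 2, became 1 with library size only, 0 with the epithelial list and 8 with Krt8, Krt18 and Cdh1. When each library was left out in turn these counts were 4861 to 7714 and 1 to 2. List counts moved too. With the full epithelial list as the scale, calls went from 17 to 10 for classical PDA genes and from 13 to 6 for HNF4A targets. They went from 8 to 1 for duct genes and from 8 to 0 for basal-like genes, while skeletal muscle stayed at 10. Scaled by Krt8, Krt18 and Cdh1, 5 HNF4A targets were called higher and 7 lower. Under the scale of Krt8, Krt18 and Cdh1 the log2 fold change turned to -0.49 for Gata4, -0.78 for Foxa1, -0.59 for Foxa2 and -0.44 for Klf5. Foxa1, near 0 as reported, turned to -0.19 with library size only and -0.0565 with the epithelial list. Leaving out 1 library gave ranges that cross 0 for Pdx1 (-0.229 to 0.00273), Hnf4a (-0.19 to 0.20), Foxa1 (-0.0323 to 0.133) and the ratio of Pdx1 to Sox9 (-0.0991 to 0.0292). The difference in the Gata4 to Gata6 ratio stayed at 0.68 to 0.85. edgeR, DESeq2, TMM scaling, no filter and pseudocounts of 0.5 and 10 kept the calls of Gata6 and Klf5 and the direction of each member. The causes were not tested. No paired analysis was possible because the groups share no replicate number. The 95% intervals of the 6 uncalled members reach up to 0.16 to 0.59 and down to -0.44 to 0.05.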
